A study of Rattus norvegicus with 6 samples.

Results

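The untreated organotypic hippocampal culture is the resting state against which a block of inhibition was measured, and its own transcriptome is described here. It was taken from the 3 arrays labelled control, out of 6 arrays in all. Every probe set with 1 gene symbol was ranked within each array, 20832 of the 31099 probe sets, and the ranks were averaged over the 3 arrays. Each of the 14218 genes was represented by the probe set with its highest mean rank. Ranks are given as percentiles of signal within the array, with 100 for the highest.

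The tissue came from Wistar rats at postnatal day 4, without any engineered allele, and slices were grown by the roller tube method. The control cultures received no drug, and the other 3 arrays came from cultures given 20 µM gabazine, an antagonist of the GABA-A receptor, for 90 min. Control and gabazine cultures of a replica came from the same litter, and no source used here says whether single animals gave slices to both. The sex of the pups and the number of days in culture were not given in the sources used here, and each array holds RNA of whole slices with all their cell types.

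Organotypic slices are thin pieces of tissue that survive for weeks in a dish while keeping the layered arrangement of the hippocampus. In this region granule cells of the dentate gyrus excite CA3 pyramidal cells, which in turn excite CA1, and GABAergic interneurons hold this chain in check. Cutting severs axons and blood vessels, and astrocytes and microglia are known to react to the injury in such cultures. A whole-slice RNA sample mixes these cells, so fewer cells of a type and less RNA per cell cannot be told apart.

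A percentile here is a rank of signal and not of transcript number, because probe sets differ in how well they hybridise. The size of this difference can be read from the 4526 genes with more than 1 probe set. Their probe sets lay a median of 33.4 percentile points apart. The range over the 3 arrays, as the median over the probe sets of each gene, had a median of 6.81 points for the same genes. In 2801 of them, 61.9%, the probe sets were more than 25 points apart. The rank of a gene therefore held much better between cultures than between probes, and a low rank does not show that a transcript was missing.

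The 3 control arrays ordered the probe sets alike, with a Spearman rho across 20832 probe sets of 0.965 between controls 1 and 2, 0.957 between controls 1 and 3 and 0.981 between controls 2 and 3. Probe sets are not independent replicates, and these values describe the arrays. Control 1 stood apart in the control features of the chip. Its 18 probe sets for bacterial and phage transcripts added at hybridisation had a median of 4.62 on the deposited log2 scale, against 12.2 in control 2 and 11.2 in control 3. The gabazine array of the same replica had 4.67. The 3′ probe set of beta-actin exceeded its 5′ probe set by 2.02 log2 units in control 1, 2.75 in control 2 and 2.82 in control 3. The Gapdh and hexokinase pairs did not follow it, with 0.63, 1.21 and 0.42 for Gapdh and 1.96, 0.80 and 1.93 for hexokinase. The 8 pairs for poly-A control transcripts had median differences of 2.52, 3.46 and 3.17 in controls 1, 2 and 3, also lowest in control 1. The median of the named probe sets was 9.25, 8.43 and 9.21 in controls 1, 2 and 3. The deposited values were quantile normalised, so this median cannot show whether hybridisation differed between arrays. Whether these technical values had a part in any difference of control 1 below was not tested, and culture, RNA sample and array of a replica cannot be told apart.

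**Figure D1:**
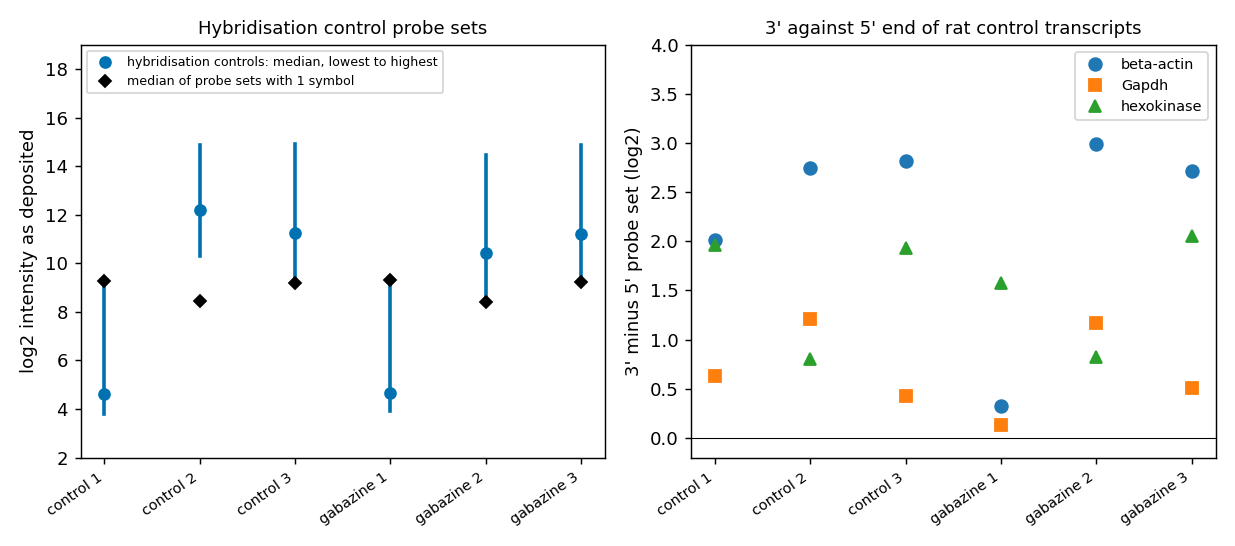
Control features of the 6 arrays. The left panel gives the deposited log2 intensity of the 18 hybridisation control probe sets (blue, median with lowest to highest) and of the named probe sets (black, median), and the right panel gives the log2 difference of 3′ and 5′ probe sets of beta-actin, Gapdh and hexokinase. The hybridisation controls of both arrays of replica 1 have medians of 4.62 and 4.67, below all other arrays.

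The highest signals of the untreated slice came from mitochondrial, glial and ribosomal transcripts. COX1, a mitochondrially encoded subunit of cytochrome c oxidase, ranked first in all 3 control arrays, with log2 values of 15.08, 15.04 and 15.41. Gfap, the intermediate filament of astrocytes, came next with log2 values of 14.92, 14.75 and 15.10. Both lay at the top of the scale in each culture. Cpe, which trims prohormones and neuropeptides, came after these, followed by COX2, a further mitochondrially encoded oxidase subunit, Vim, an intermediate filament of glia and progenitors, and Itm2b, a membrane protein. The other genes among the 20 highest were Actg1, Cd81, Gja1, Zwint, Prnp, Tmsb4x, Rps29, Apoe, Ctsb, Fabp7, Tubb2a, Rpl27a, Rpl7a and Sparcl1. They include the astrocyte gap junction protein Gja1, the lipid carrier Apoe, the prion protein gene Prnp and the lysosomal protease Ctsb. Of these 20 genes Tubb2a had the largest range between cultures, 0.134 points, and Apoe, with 0.130 points, followed. The scale is compressed at its upper end, so small ranges there still change the order of the genes.

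Among the 200 genes with the highest mean rank, 1.41% of all genes, 29 coded for cytosolic ribosomal proteins, 10 were astrocyte markers, 9 belonged to oxidative phosphorylation, 8 to glycolysis, 7 to the tubulin and actin cytoskeleton and 7 to protein synthesis and turnover. A further 122 were in none of the 43 gene lists used here. The last gene inside this group was Ddx5 at a mean percentile of 98.88, and the first outside was Prdx2, also at 98.88. The ranges within the group had a median of 0.319 points, and the largest was that of Rpl37a, 1.87 points. Of the 200 genes, 179 were also among the 200 highest of the gabazine arrays, 89.5%, and the lowest mean percentile of any of them there was 98.3. The cultures of a replica come from littermates, so this overlap is no independent replication.

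Ribosomal proteins form the protein part of the ribosome, and their mRNAs in mammals typically begin with a run of pyrimidines that ties their translation to growth signals. Of the 47 ribosomal protein genes measured, 38 had a mean percentile of 90 or more, as did 12.9% of all genes. The list had a median of 99.3 in control 1, 99.3 in control 2 and 98.8 in control 3, against about 60 for all genes in each array (60.6, 60.1 and 59.9). The members of low rank were partly paralogs of restricted use, such as Rpl3l at 12.6 and Rpl39l1 at 23.8, and partly standard subunits such as Rpl30 at 20.0 and Rpl28 at 32.7. Rps27l had the largest range of the list. Ribosomal protein genes have many near-identical pseudogene copies, and probe sets could share signal with them.

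The start of these genes is shown because a pyrimidine run was more frequent within 25 bases of it than in the other genes of high rank. The lines below give 25 bases on each side of the RefSeq start on assembly GRCr8, read on the strand of the gene, for the 8 highest ribosomal protein genes with an entry in the promoter table. Capitals mark every run of 8 or more C or T letters on either side of the start. The runs of Rpl7a and Rps6 lie wholly before the listed start.
Rpl27a, chr1:172974548-172974597, + strand: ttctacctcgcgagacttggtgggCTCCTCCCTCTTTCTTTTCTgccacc
Rpl7a, chr3:30637111-30637160, + strand: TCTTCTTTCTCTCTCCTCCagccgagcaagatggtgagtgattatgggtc
Rps23, chr2:23814492-23814541, + strand: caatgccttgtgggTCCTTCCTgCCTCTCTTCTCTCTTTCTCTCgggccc
Rpl26, chr10:54109667-54109716, + strand: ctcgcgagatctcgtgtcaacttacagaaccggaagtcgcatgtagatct
Rpl3, chr7:113507966-113508015, - strand: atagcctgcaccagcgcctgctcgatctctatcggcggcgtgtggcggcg
Rps6, chr5:106420516-106420565, - strand: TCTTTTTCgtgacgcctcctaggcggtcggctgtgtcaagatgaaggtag
Rps3a, chr2:173827018-173827067, - strand: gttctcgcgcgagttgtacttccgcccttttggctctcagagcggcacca
Rplp0, chr12:46718366-46718415, - strand: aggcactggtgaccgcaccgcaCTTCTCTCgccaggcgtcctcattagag

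Such a run, before or after the listed start, was found in 18 of the 25 ribosomal protein genes of the top 200 that had an entry, 72%. It was found in 36 of the 143 other genes of the top 200, 25.2%. These are therefore not counts of mRNAs that begin with a run. Over all measured genes the share was 18.1%, and over all 27457 listed promoters it was 19.3%. The windows of Rpl26, Rpl3 and Rps3a hold no run of that length, which says only that these letters are not within 25 bases of the listed start. The 300 bases around the start had a median of 22 CG dinucleotides in the ribosomal and in the other genes of the top 200, against 19 in all measured genes and 6 in the genes with a mean percentile under 25. The letters TATAAA, searched on both strands, were in 13.7% of the top 200, in 8.46% of all measured genes and in 16.4% of the genes with a mean percentile under 25. A match to letters is a description and not a site.

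Genes of the energy pathways also ranked high, with list medians of 99.3 for glycolysis and 95.7 for oxidative phosphorylation. Of 15 glycolytic genes, 14 had a mean percentile of 90 or more, with Gapdh the highest and the liver-type phosphofructokinase Pfkl the lowest at 68.5, 54.8 and 57.9. Gapdh lay at 99.8, 99.8 and 99.7, and the beta-actin 3′ control probe set at 99.7, 99.0 and 98.6. Of 79 genes of oxidative phosphorylation, a list without the mitochondrially encoded subunits, 65 were at 90 or more, led by the ATP synthase subunit Atp5mc3. The lowest members were isoforms typical of other tissues, namely Cox7b2 at 6.23 and Cox8b at 8.06, together with Cox6b2 at 15.8 and Cox4i2 at 18.2. Cox5a was the member that varied most, at 51.2 in control 1, 93.7 in control 2 and 90.7 in control 3. Heat shock proteins had a list median of 96.6 with Hspb1 highest, and Hspa1a, the stress-inducible Hsp70, lay at 54.7, 83.0 and 58.6. Hypoxia response genes had a median of 77.2, with Pgk1 and Ldha near the top and the carbonic anhydrase Car9 lowest at 29.8, 38.9 and 43.0.

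Astrocyte markers had the highest median of the cell type lists on the highest-ranked probe set of each gene. With the median over all probe sets of a gene the list lay at 78.2, below general neuronal markers at 78.6 and beside microglial markers at 78.2. Of 16 measured, 12 were at a mean percentile of 90 or more, and the list median was 99.6, 99.6 and 99.3 in controls 1, 2 and 3. The water channel Aqp4 lay at 99.4, 99.5 and 99.2, the glutamate transporter Slc1a3 at 99.7, 99.9 and 99.6 and the glutamine synthetase gene Glul at 99.4, 99.7 and 99.0. The markers were not uniform, since Aldh1l1 lay at 80.6, 66.3 and 70.1, the glutamate transporter Slc1a2 at 50.8, 48.7 and 47.6, and the connexin Gjb6 at 46.0, 22.9 and 30.8. The list of reactive glia and injury genes had a median of 82.7 over 23 genes, and its highest members were Gfap and Vim. Its cytokines ranked low, with Il1b at 30.8, 38.9 and 28.7, Tnf at 33.8, 46.7 and 39.0 and Il6 at 20.0, 30.9 and 9.65.

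General neuronal markers followed with a list median of 93.5 over 16 genes. Snap25, a core protein of vesicle fusion, was highest at 99.9, 99.7 and 99.8, and Rbfox3, which encodes the nuclear marker NeuN, lay at 93.2, 94.1 and 94.9. None of the 16 had a mean percentile under 25, where 18.9% of all genes lay. The lowest was the vesicle calcium sensor Syt1 at 32.3, 40.04 and 32.8. Excitatory markers had a median of 87.7 over 10 genes, with the pentraxin Nptx1 highest, the vesicular glutamate transporter Slc17a7 at 95.6, 87.6 and 89.9 and the cortical transcription factor Tbr1 lowest at 5.52, 6.73 and 6.32. Camk2a, a synaptic kinase of mature excitatory neurons, differed most, at 95.7, 84.4 and 71.0.

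Markers of the hippocampal fields were present at uneven ranks. For dentate granule cells, Prox1 lay at 78.0, 78.5 and 89.0 and Calb1 at 96.3, 97.7 and 95.9, while Tdo2 was lowest at 6.97, 4.23 and 3.23. The dentate list of 6 genes had a median of 83.7. In it 1 gene lay at 90 or more and 2 under 25, against 12.9% and 18.9% of all genes. The CA3 and CA2 list of 10 genes had a median of 67.0, also with 1 gene at 90 or more and 2 under 25. It ran from the calmodulin-binding Pcp4 at 99.1, 99.3 and 98.1 down to Iyd at 19.2, 15.9 and 19.4, and Socs2, its most variable gene, lay at 34.9, 27.6 and 13.4. The CA1 list of 5 genes had the lowest median of the fields, 46.3, and ran from Mpped1 at 95.3, 89.7 and 95.8 down to Spink8 at 1.46, 2.85 and 2.48. Markers of other brain regions, 13 genes, had a median of 24.8, none had a mean percentile of 90 or more, and the highest was the hypothalamic peptide gene Hcrt at 51.1, 44.7 and 36.8. Against its label as hippocampus, the tissue had high ranks for general neuronal markers, mixed ranks for the markers of all hippocampal fields and low ranks for those of other regions.

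Interneuron genes ranged over most of the scale. Gad1, which makes GABA, lay at 97.8, 97.5 and 97.7, and the peptides Npy, Cck and Sst at mean percentiles of 96.2, 95.1 and 85.2. Gad2, the second enzyme for GABA, lay at 18.7, 33.6 and 23.3, and the vesicular transporter Slc32a1 at 60.7, 58.9 and 49.7. Pvalb, the marker of fast-spiking basket cells, lay at 60.0, 53.5 and 53.9. The serotonin receptor gene Htr3a was lowest at 20.2, 13.2 and 17.4. Reln, shared with the Cajal-Retzius list, lay at 88.7, 94.3 and 97.0.

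Oligodendrocyte genes were led by Mbp, the myelin basic protein gene, at 99.7, 99.7 and 98.5, and by Cnp at 98.3, 97.7 and 94.6. The list of 11 myelinating markers had a median of 65.8, with the late markers Opalin at 46.5, 35.1 and 31.3 and Ermn at 42.0, 31.1 and 27.9 lowest. Among precursors, Pdgfra lay at 95.5, 94.0 and 97.3 and Olig1 at 89.7, 95.3 and 96.7, while Olig2 lay at 12.7, 14.9 and 15.0. Microglial genes had a median of 79.3 over 21 genes, with the lysozyme gene Lyz2 highest. Homeostatic microglial genes had middle ranks, with P2ry12 at 54.9, 55.5 and 56.9, Tmem119 at 49.7, 41.8 and 37.0 and Cx3cr1 at 36.7, 34.0 and 36.5. Gpnmb, a lysosomal glycoprotein of phagocytes, lay at 99.0, 99.0 and 98.8.

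Vascular and blood genes ranked low. Endothelial markers had a median of 24.3 over 11 genes, with Pecam1 at 29.1, 28.7 and 27.5, and the highest was the glucose transporter Slc2a1, which astrocytes and other cells also use. Red blood cell genes had a median of 22.1, with the globin gene Hbb at 33.6, 41.7 and 37.0. Mural markers had a median of 36.3 with Tagln highest, and choroid plexus markers 30.3. The 44 markers of liver, striated muscle, testis and pancreas, which a hippocampal slice should lack, had a median of 13.6. Of these, 35 had a mean percentile under 25 and 0 had 90 or more, and Pnlip was the highest at 53.8, 59.7 and 61.5. These ranks give the level of probe sets for genes that belong to other tissues.

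**Figure D2:**
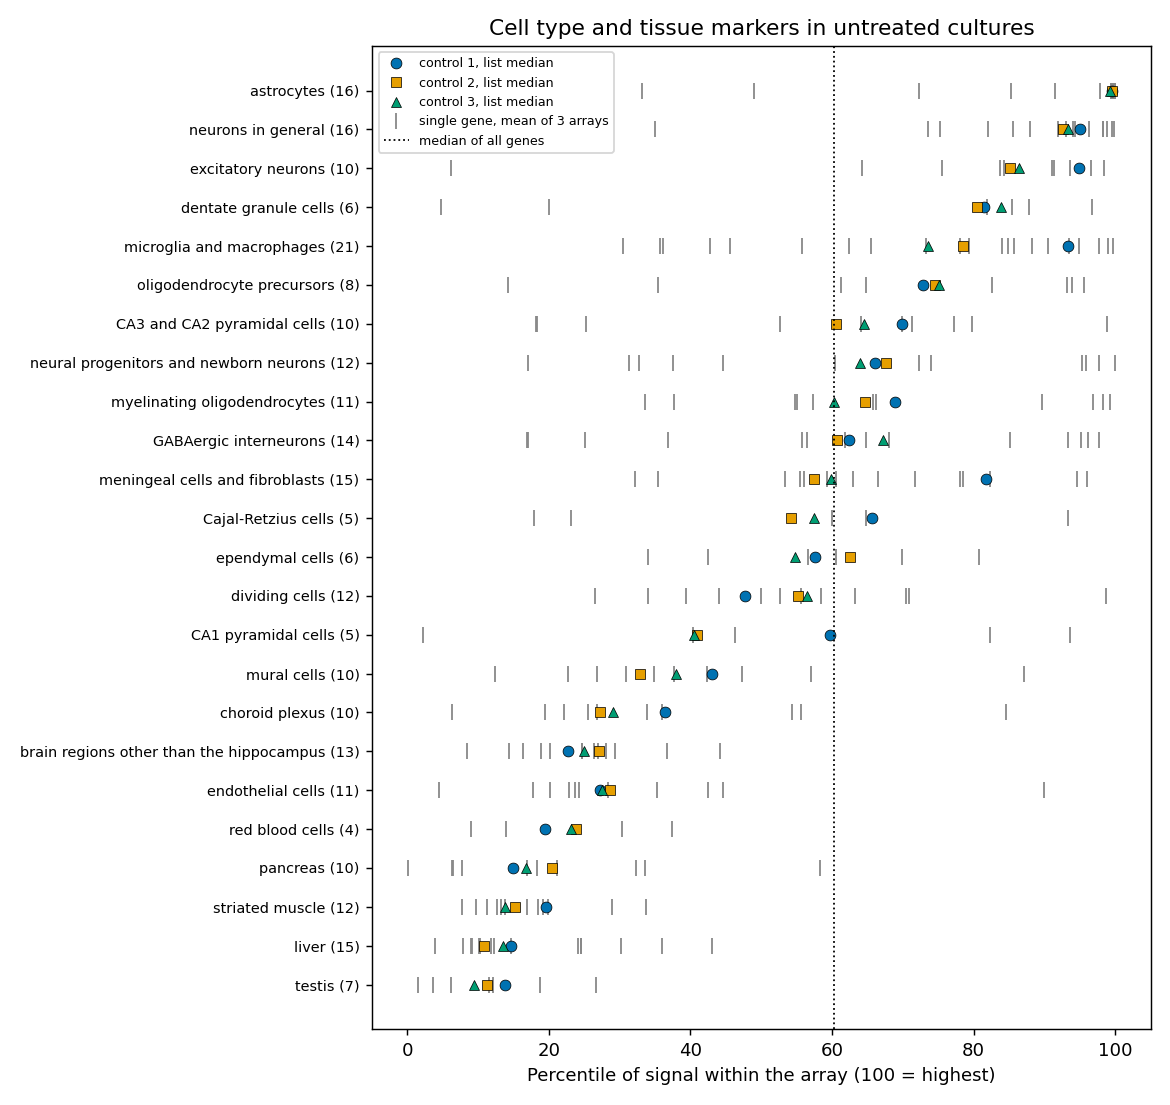
Percentile of signal for cell type and tissue marker lists, with the number of measured genes in brackets. Grey ticks are single genes (mean of 3 arrays), coloured symbols are list medians in controls 1, 2 and 3, and the dotted line is the median of all genes, 60.3. Astrocyte and neuronal lists lie at the top and the liver and testis lists at the bottom.

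Cell division and progenitor genes were in the middle of the scale. The 12 markers of dividing cells had a median of 54.1, with the replication clamp Pcna highest and the proliferation marker Mki67 at 69.2, 68.9 and 74.5. Progenitor and newborn neuron markers had a median of 66.4. They were led by Fabp7, a fatty acid binding protein of radial glia, and Dcx, the microtubule protein of migrating neurons, lay at 65.0, 72.5 and 84.6. Control 3 was the highest array in 10 of these 12 genes and in 9 of the 12 dividing cell markers, where 35.7% of all genes had their highest rank. Eomes, a marker of intermediate progenitors, was lowest at 8.25, 16.1 and 26.9, and Igfbpl1, found in newborn neurons, differed most at 12.8, 28.2 and 52.8.

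Subunits of the GABA-A receptor, on which gabazine acts, and of glutamate receptors ranged over most of the scale. Of 15 GABA-A receptor subunits, 2 had a mean percentile of 90 or more, 13.3% against 12.9% of all genes. Another 7 lay under 25, 46.7% against 18.9% of all genes. The highest was Gabrb1 at 96.3, 96.8 and 96.4, followed by Gabra5, the alpha subunit typical of hippocampal extrasynaptic receptors, at 94.6, 95.2 and 96.4. Gabrb2 lay at 88.3, 84.3 and 87.7 and Gabra2 at 67.4, 71.4 and 71.7. The list median was 25.7, and the cerebellar subunit Gabra6 lay at 6.31, 8.34 and 10.6. The chloride importer Slc12a2, which keeps immature neurons depolarised by GABA, lay at 97.6, 97.2 and 97.1, and the exporter Slc12a5 of mature neurons at 96.4, 89.9 and 92.2. Both transporters thus ranked high in every culture.

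Of 17 ionotropic glutamate receptor subunits the AMPA receptor subunit Gria2, which limits calcium entry, was highest at 97.3, 98.8 and 99.3. The obligatory NMDA receptor subunit Grin1 lay at 86.7, 81.9 and 79.0, Grin2a at 65.7, 63.2 and 62.8 and Grin2b at 39.2, 39.5 and 32.0. Gria4 varied most, at 62.5, 72.9 and 81.1. The list median was 52.6, and that of the 7 metabotropic receptors was 31.3, with the glial and neuronal receptor Grm3 highest. Postsynaptic density genes had a median of 73.9 over 20 genes, from the kinase subunit Camk2b at 99.3, 96.0 and 98.8 down to the scaffold Dlgap2 at 28.1, 11.1 and 10.2. Neuropeptide genes had a median of 64.5, with the secretogranin Scg2 at 98.3, 98.4 and 98.4 and the galanin gene Gal, the most variable, at 21.5, 52.1 and 49.5.

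Immediate early genes, which neurons switch on within minutes of activity, were mixed in rank in the untreated cultures, and 6 of the 28 transcription factors measured had a mean percentile of 90 or more, against 12.9% of all genes. Fos lay at 96.9, 98.7 and 98.3, Egr1 at 96.2, 97.1 and 94.2 and Jund, the highest of the list, at 97.2, 99.4 and 99.5. The list median was 68.7, against 60.3 for all genes, and Egr3 was lowest at 16.9, 18.9 and 15.0. Control 2 was the highest array for 21 of the 28 genes, where 23.9% of all genes were highest in control 2. Its list median was 79.2, against 66.1 in control 1 and 70.8 in control 3. Fosl1 varied most, at 43.9, 84.0 and 69.1. In the reactive glia list control 2 was likewise the highest array, for 18 of 23 genes, with Lcn2, an acute-phase lipocalin, at 49.0, 83.7 and 35.4. Among the 30 genes whose response to gabazine the study followed, a list chosen on these samples, Bdnf, a neurotrophin of active neurons, lay at 59.9, 90.8 and 71.9.

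Control 1 was highest for most genes of many lists, among them those of microglia, of meningeal cells and of synapses. It was the highest array for 14 of 21 microglial genes, where 40.4% of all genes were highest in control 1, and the list median was 93.3 against 78.6 in control 2 and 73.5 in control 3. The complement gene C1qa lay at 98.7, 95.9 and 77.1, and Tyrobp, an adaptor of microglial receptors, at 93.3, 67.6 and 73.5. Among the other 7 genes the most variable was Mmp12, a macrophage elastase, which lay at 16.0 and 13.9 in controls 1 and 2 and at 78.7 in control 3. Of 15 genes of meningeal cells and fibroblasts, 13 were highest in control 1, with Col1a1 at 88.4, 50.8 and 49.6, Col3a1 at 95.4, 70.8 and 69.6 and Ptgds at 99.6, 71.2 and 76.2. This list held 7 genes with a range over 25 points, which 1.43% of all genes had. Of 21 synaptic vesicle genes, 13 were highest in control 1. The medians of that list were 90.9, 79.0 and 73.4, with Vamp2, the vesicle SNARE, at 94.1, 76.6 and 64.2. Control 1 was likewise highest for 8 of 10 excitatory neuron markers and 8 of 10 mural markers. The same held for 10 of 12 genes of GABA synthesis, transport and chloride balance, although that list median was highest in control 2. Control 1 was also the highest array for 13 of 15 glycolytic genes and 44 of 79 genes of oxidative phosphorylation. The glycolysis median was highest in control 2, at 99.1, 99.3 and 98.9 in controls 1, 2 and 3. That of oxidative phosphorylation was highest in control 1, at 97.1, 96.3 and 94.0. The hybridisation controls and the 3′ to 5′ difference of beta-actin were also lowest in control 1, and their part in these differences was not tested.

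**Figure D3:**
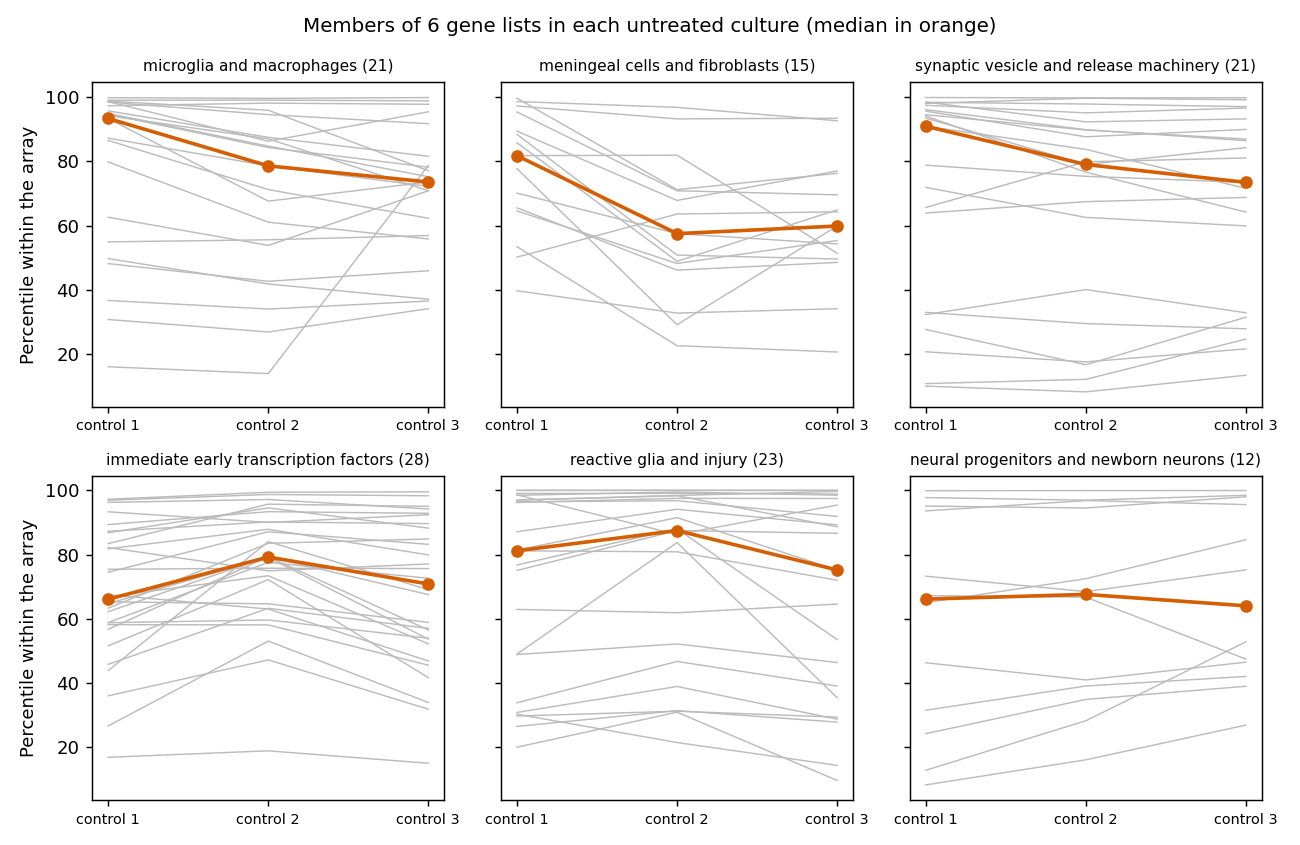
Percentile of signal in controls 1, 2 and 3 for the members of 6 gene lists, with the number of genes in brackets. Each grey line joins the values of a gene and the orange line joins the list medians, and the order of the arrays has no meaning. The microglial, meningeal and vesicle medians are highest in control 1 (93.3, 81.8 and 90.9) and the immediate early and reactive glia medians in control 2 (79.2 and 87.5).

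Over all genes the percentile range between the 3 cultures had a median of 6.24 points, with quartiles of 3.36 and 9.99. It was narrow at both ends of the scale, 2.52 points under percentile 10 and 2.24 from percentile 90, and widest between percentiles 60 and 70, at 8.45. On the log2 scale, centred on the median of each array, the median range stayed between 0.48 and 0.58 at every level, so the narrow ends belong to the rank scale. A range of 1 point or less was found for 806 genes, 5.67%, and of these 423 lay at 90 or more and 209 under 10. A range over 25 points was found for 204 genes, 1.43%, and a centred log2 range over 2 for 168 genes, 1.18%. Cidea at 25.1 points was the last gene inside the limit of 25 and Rab11fip4 at 24.9 the first outside.

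Between the 50th and 90th percentiles, the 10 most reproducible genes were Ccdc107, Gcc2, Maml2, Hepacam, Mccc1, C4h2orf81, Anapc4, Egr2, C5h1orf50 and Rbm33. Ccdc107 had a range of 0.134 points and Rbm33 of 0.346. Hepacam, an adhesion protein of astrocytes, lay at 73.0, 73.2 and 73.0, and Egr2, an immediate early transcription factor, at 75.4, 75.7 and 75.6. The stability of Egr2 stood beside the spread of Fosl1 in the same list.

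**Figure D4:**
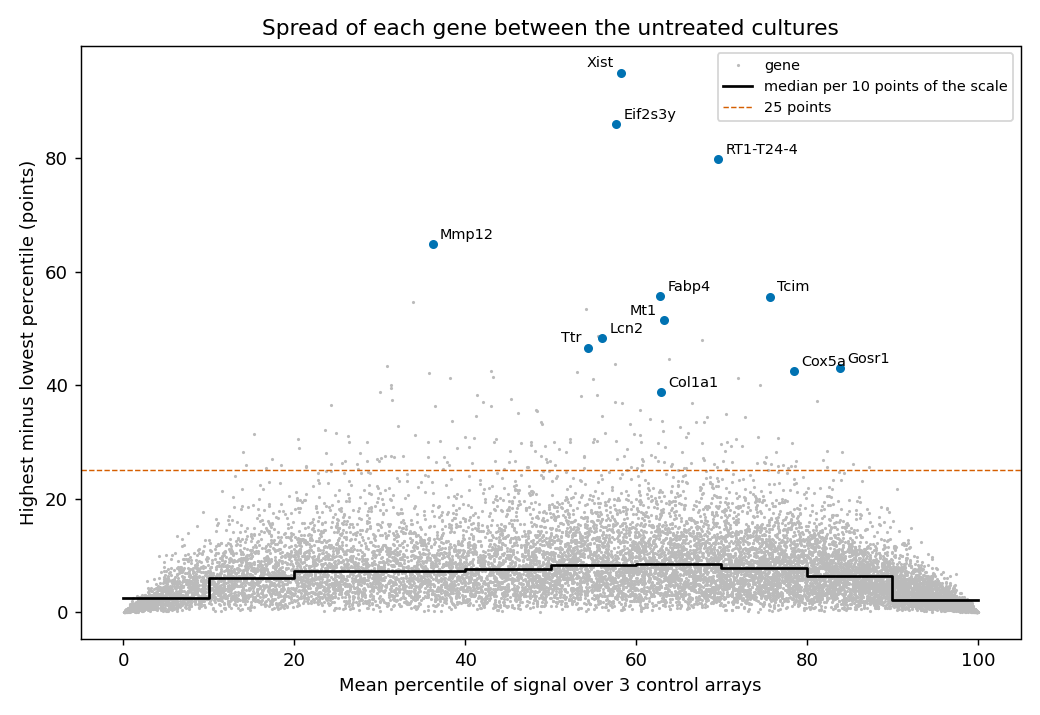
Range of the percentile between the 3 control arrays against the mean percentile, with a grey point for each of the 14218 genes. The black steps are the median of each 10 points of the scale and the dashed line marks 25 points, and 12 genes named in the text are labelled. Xist, Eif2s3y and RT1-T24-4 lie far above the rest, with ranges of 95.0, 86.0 and 79.8 points.

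The largest spread of all genes belonged to sex-linked genes. Xist, the non-coding RNA that coats the inactive X chromosome in female cells, lay at 1.12 in control 1, 96.1 in control 2 and 77.6 in control 3. All 4 of its probe sets were lowest in control 1, where they lay between 0.571 and 4.56. Eif2s3y, a translation factor gene of the Y chromosome, lay at 88.3 in control 1, 2.33 in control 2 and 82.3 in control 3. Control 3 therefore had high signals for both. The Y-linked demethylase gene Uty did not follow Eif2s3y on its highest-ranked probe set, with 67.6, 67.6 and 77.8.

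RT1-T24-4, a class I histocompatibility gene, had the next largest spread among genes with a mean percentile of 50 or more, the limit for the genes named here, at 16.7 in control 1, 95.6 in control 2 and 96.5 in control 3. Its probe set carries a suffix that the array maker gives to sets that may cross-hybridise with related genes. Fabp4, a fatty acid binding protein of fat cells and macrophages, lay at 65.3, 33.8 and 89.4, and Tcim at 39.4, 95.1 and 92.4. Hs6st2, a heparan sulphate sulphotransferase, lay at 20.2, 68.7 and 73.6. Mt1, a metal-binding metallothionein, lay at 33.8, 85.3 and 70.7, whereas its relative Mt2A lay at 99.94, 99.98 and 99.55. Near its ceiling the rank scale hides spread. On the log2 scale centred on the array median Mt2A lay at 5.37, 6.09 and 5.06 and Mt1 at -1.32, 2.39 and 1.39. Both were highest in control 2 on that scale, but so was COX1, at 5.83, 6.61 and 6.20. As deposited, Mt2A lay at 14.62, 14.52 and 14.27, highest in control 1, so its order depends on the centring.

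Of the other most variable genes, several were secreted proteins. Ogn, a matrix proteoglycan of meninges, lay at 77.7, 29.1 and 59.8. Inhba, which encodes an activin subunit, lay at 45.5, 93.5 and 64.3, and the chemokine gene Cxcl1 at 42.2, 86.8 and 62.5. Both were highest in control 2, as was Ttr, the thyroid hormone carrier made by choroid plexus, at 40.01, 84.9 and 38.3. Folr1 and Kl, other choroid plexus genes, lay at 62.3, 53.5 and 51.0 and at 10.2, 5.16 and 3.61, so they did not follow Ttr. The complement protease gene Cfd lay at 79.3, 50.05 and 32.9, and Tpm2, a tropomyosin, at 78.1, 49.7 and 37.0. Yaf2, Rab27b and Camk2n1, an inhibitor of CaM kinase, were lowest in control 1, and so was the Golgi SNARE gene Gosr1 at 55.4, 98.4 and 97.9.

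Control 1 was the array farthest from the middle of the 3 values for 146 of the 204 variable genes, 71.6%, against 43.7% of all genes. It lay above the other arrays for 61 of them and below for 85. Control 2 and control 3 stood apart for 29 genes each. The gabazine array of the same replica deviated in the same direction from the other gabazine arrays for all 146 genes of control 1. The same held for 29 of 29 genes of control 3 and for 21 of 29 of control 2, 72.4%. Over all genes the share was 90.1%. It was 92.4%, 80.4% and 93.8% for all genes in which control 1, 2 or 3 stood apart. The direction in which an array stood apart was therefore mostly the same in the gabazine array of its replica. The arrays of a replica also share exact log2 values for 16.1% to 25.7% of all probe sets of the array. Arrays of different replicas share them for 0%, and the part of normalisation in this shared direction was not tested. Litter, RNA preparation, array and normalisation of a replica cannot be told apart.

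**Figure D5:**
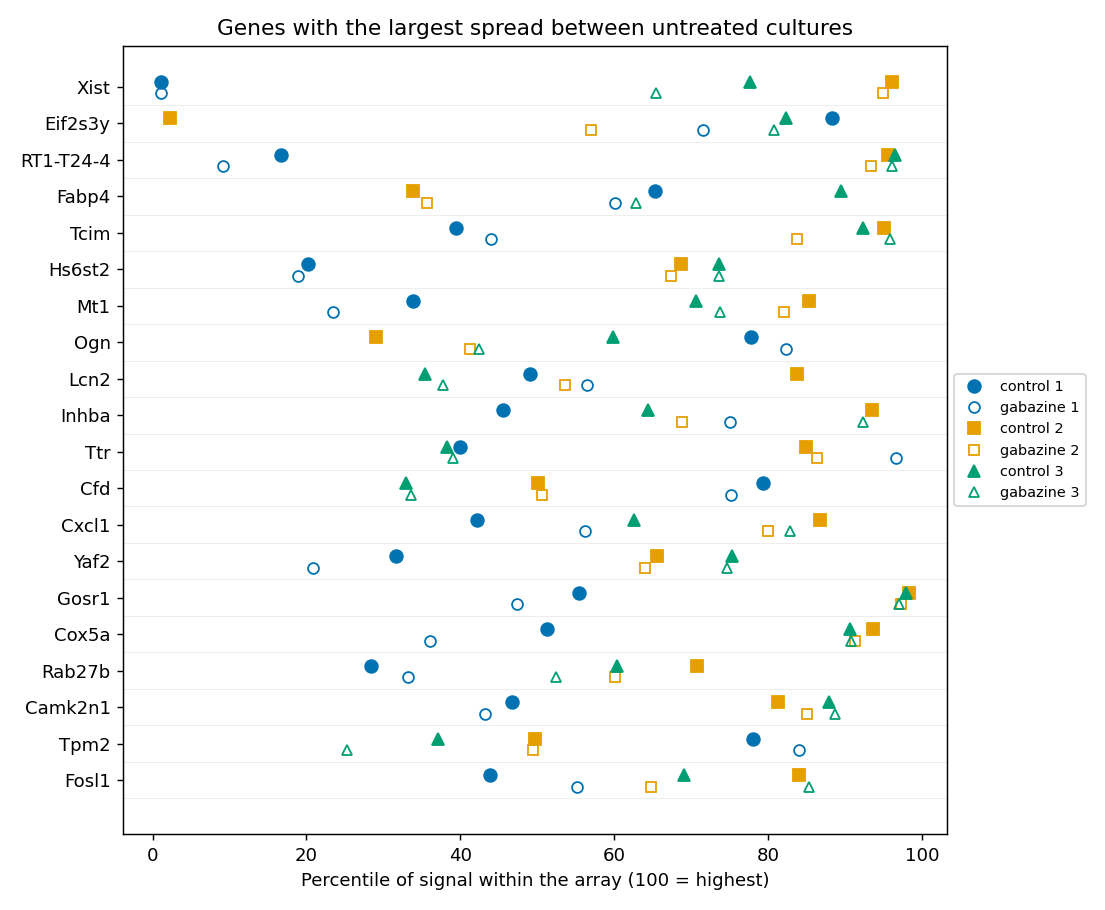
Percentile of signal of the 20 genes with the largest range between control arrays among genes with a mean percentile of 50 or more, in 3 control arrays (filled) and 3 gabazine arrays (open), with a colour and shape for each replica. For most genes the open symbol lies near the filled symbol of its replica. Exceptions include Eif2s3y in replica 2 (2.33 and 56.9) and Ttr in replica 1 (40.01 and 96.6). They also include Lcn2 in replica 2 (83.7 and 53.6), Fabp4 in replica 3 (89.4 and 62.9) and Inhba in each replica.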

How the data were processed

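RNA of rat organotypic hippocampal cultures was hybridised to the Affymetrix RAT2302 array. The authors made the deposited log2 values with RMA, which corrects background, quantile normalises and summarises probes, as their methods and the submitters' processing notes name it. Its version, and whether the replicas were normalised together, are not given in the sources used here. Control and gabazine arrays of a replica share identical log2 values for 16.1% to 25.7% of all probe sets, and arrays of different replicas for 0%. Precision is limited by having 3 control arrays, and no detection measure was used. Groups came from the sample labels, and 0 value columns were left out.

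The platform annotation gave 1 symbol for 20832 probe sets, several for 436 and none here for 9831, and no gene was named from a set with several. Percentiles and centred values were computed with Python 3.11.15, pandas 2.3.3 and numpy 2.4.6, and the ranking was tested on simulated data. Named in the text are the 20 highest genes, the 20 most variable with a mean percentile of 50 or more, the 10 least variable from 50 to 90, Gapdh and beta-actin, cell type markers, and for each list the highest, lowest and most variable gene, and a few other list members were chosen after their values were seen. The members and lists were chosen with earlier results of these data known. No test was run, since only 1 group is described. Alternatives were the median over probe sets, other ranked sets, filters, scalings and leaving out each array.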

Additional observations from a re-analysis of the deposited data

Results flagged for a closer look

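Eif2s3y, a gene of the Y chromosome, lay at percentile 56.9 in the gabazine array of replica 2, against 2.33 in the control array of that replica. The description of the untreated cultures does not use the gabazine array. Ttr lay at percentile 96.6 in the gabazine array of replica 1, above the 40.01, 84.9 and 38.3 of the control arrays.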

How the results depend on the processing

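Control 1 had the largest effect on the genes of large range when a control array was left out. Leaving out an array can only keep or shorten the range of a given probe set. The median range was then 2.95 to 4.40 points in place of 6.24, genes with a range of 1 point or less numbered 2192 to 3014 in place of 806, and genes with a range over 25 points 29 to 128 in place of 204, with the 29 left without control 1. Genes with a centred log2 range over 2 numbered 16 to 112 in place of 168, with the 16 left without control 1. This last count was 100 without genes of a mean percentile under 40 and 359 with the values as deposited, which keep the different medians of the arrays. Ribosomal protein genes among the 200 highest numbered 24 to 32 in place of 29, and genes shared with the 200 highest of the gabazine arrays 166 to 178 in place of 179. Under the other alternatives these counts stayed within 1.5 times. With the median over all probe sets of a gene, 25 of 43 list medians moved by more than their SD over the arrays, by up to 22.6 points for neural progenitors and newborn neurons. With all probe sets ranked 26 moved, by up to 7.14 points, and without cross-hybridising suffixes 7 moved. No paired analysis was possible because the values come from no test between groups.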

Other observations

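Unnamed probe sets carried part of the signal. Of the 9831 probe sets without a symbol in the annotation used here, 468 were at percentile 90 or more of all probe sets in the control arrays, 4.76%, against 2334 of the named sets, 11.2%. Their median percentile was 35.9, against 57.3 for named sets.

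Interferon and antigen presentation genes had a median percentile of 44.9 over 20 genes in the control arrays. B2m, the light chain of class I molecules, was highest at 99.5, 99.4 and 99.5 in controls 1, 2 and 3, and Ifit3, an interferon-induced gene, was lowest at 13.7, 4.85 and 2.09. The antiviral GTPase gene Mx2 varied most, at 49.8, 54.6 and 29.3.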
